A study of Mus musculus with 6 samples.

Results

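p53, encoded by Trp53, and 9 of its target genes were followed across 6 RNA libraries of cultured mouse chondrocytes. The genes were taken by name, as the gene itself and 9 widely used transcriptional targets (Mdm2, Cdkn1a, Bax, Ccng1, Bbc3, Pmaip1, Trp53inp1, Phlda3 and Zmat3), out of 44788 genes and other transcripts in the deposited count table. They were chosen with earlier results of these data known. All 10 had reads in all 6 libraries, and all 10 passed the filter on low counts, as did 15362 genes in total. Chondrocytes of the C57BL/6 femoral epiphysis, the cartilage end of the thigh bone, were labelled as coming from animals of postnatal day 1 and were cultured in DMEM/F12 with 10% fetal bovine serum. Of 3 groups, the TGF-alpha plus gefitinib group received 10 µM gefitinib, an inhibitor of the kinase of the epidermal growth factor receptor (EGFR), for 30 min and then gefitinib together with 10 ng/ml transforming growth factor alpha (TGF-alpha), a ligand of that receptor, for 48 h. The TGF-alpha group received the ligand alone at the same dose and time, and the control group neither agent. All groups carried 0.1% DMSO per the treatment labels, whereas the series design names PBS for the control, and the labels also use the term P2 without explaining it. Each group had 2 libraries. No source says whether these came from separate cultures or animals. The p-values therefore rest on the spread between these libraries only, estimated over all groups and partly across genes. That spread may be technical. No group with gefitinib alone was analysed here, so an effect of gefitinib itself and an effect through the blocked ligand cannot be told apart.

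p53 is a transcription factor that is kept scarce in unstressed cells by MDM2, an E3 ubiquitin ligase that marks it for destruction and whose own gene it switches on. After DNA damage, oncogene signalling or other stress the p53 protein is stabilised, mostly without a change of its mRNA, and it raises genes that halt the cell cycle (Cdkn1a), trigger mitochondrial apoptosis (Bax, Bbc3, Pmaip1) or feed back on the pathway (Mdm2, Ccng1). In growing cartilage, where chondrocytes divide in columns before they enlarge, the cyclin-dependent kinase inhibitor p21 made from Cdkn1a is known as a brake on division. mRNA counts report on the targets but not on the amount, modification or location of the p53 protein.

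The DNA element that p53 binds consists of a pair of decamers, each with a C and a G at fixed places near its centre. The windows from 250 bases before to 50 bases after the annotated starts (RefSeq, GRCm38.p6) were searched on both strands for a full site, which is 2 abutting decamers of the p53 consensus with both cores exact and at most 2 other mismatches. Of the 10 genes 7 had a window; Pmaip1, Trp53inp1 and Zmat3 had none. A full site was found for Cdkn1a and for Ccng1, each with 1 mismatch, and 0.392% of 27025 genes with a window held one. These sites are shown because one of the genes was raised in the gefitinib libraries and the other was not called. Capitals mark the C and G of each core.

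Cdkn1a site, 51 bases before the upstream annotated start, chr17:29090928-29090947, plus strand: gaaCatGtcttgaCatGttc

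Ccng1 site, 195 bases before the annotated start, chr11:40755462-40755481, minus strand: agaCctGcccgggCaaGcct

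The windows around these sites read as follows, in lower case apart from the matched full sites and any further exact decamer. The Cdkn1a window lies on the plus strand at chr17:29090729-29091028 and the Ccng1 window on the minus strand at chr11:40755237-40755536.

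Cdkn1a: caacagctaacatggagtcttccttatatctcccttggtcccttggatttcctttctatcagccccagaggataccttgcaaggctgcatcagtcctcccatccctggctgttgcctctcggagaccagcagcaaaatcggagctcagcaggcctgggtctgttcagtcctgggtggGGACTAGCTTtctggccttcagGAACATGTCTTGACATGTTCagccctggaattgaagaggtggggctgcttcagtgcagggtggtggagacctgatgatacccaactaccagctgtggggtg

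Ccng1: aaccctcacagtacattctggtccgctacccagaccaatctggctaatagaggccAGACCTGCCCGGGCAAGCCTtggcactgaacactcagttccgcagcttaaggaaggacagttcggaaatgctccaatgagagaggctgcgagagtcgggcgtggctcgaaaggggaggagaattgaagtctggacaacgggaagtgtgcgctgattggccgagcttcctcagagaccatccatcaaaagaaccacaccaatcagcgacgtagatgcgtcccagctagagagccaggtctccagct

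At least 1 exact decamer was present in the windows of 5 of the 7 genes, against 9.55% of all genes with a window. These were Cdkn1a and Ccng1, where exact decamers form part of the full sites, and Bax, Mdm2 and Trp53, each with 1. That search was added after the data were seen. The decamer of Bax read aggCaaGctt (chr7:45467090-45467099, minus strand) and that of Mdm2 gaaCttGcct (chr10:117710935-117710944, minus strand). The windows of Phlda3 and Bbc3 held neither pattern. A match is a description of these letters and says nothing of binding.

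The 6 libraries had total counts from 12317407 to 16096263. The partners within a group were not copies of one library: the chi-square of their counts, divided by its degrees of freedom, was 3.83 for TGF-alpha plus gefitinib, 3.57 for TGF-alpha and 3.03 for control. Reads of Rn18s-rs5, a gene like 18S ribosomal RNA, made up 0.657% and 0.786% of counts with TGF-alpha plus gefitinib, 1.21% and 0.851% with TGF-alpha and 1.39% and 1.36% in control, so TGF-alpha replicate 2 stood apart from its partner, and the results are given below also without single libraries where that changed a call. All 8 chondrocyte markers, with Col2a1, Acan and Sox9 among them, were present, and their summed level was 54720 to 57566 CPM (library-scaled counts, explained with the first gene below) with TGF-alpha plus gefitinib, 32893 to 34000 with TGF-alpha and 62257 to 66810 in control. All 8 of these markers were lower with TGF-alpha than in control and higher with TGF-alpha plus gefitinib than with TGF-alpha. Endothelial markers summed to at most 0.649 CPM and erythroid and neutrophil markers to at most 0.649 CPM in any library, and the leukocyte gene Ptprc had 0 counts throughout. Fibroblast and perichondrial markers summed to 16485 to 16877, 14399 to 14520 and 21983 to 23871 CPM in the same groups, skeletal muscle markers to at most 5.54 CPM, and osteoblast markers to 117 to 119, 84.2 to 90.6 and 178 to 181 CPM. Macrophage and osteoclast markers summed to 106 to 109, 73.3 to 83.3 and 70.2 to 71.1 CPM, of which 98.0 and 98.7, 61.4 and 69.6, and 63.6 and 65.0 CPM were the protease gene Ctsk. The lists did not move as one. Among 6 fibroblast markers, Col1a1, Col1a2 and Dpt were lower with TGF-alpha than in control, whereas the receptor gene Pdgfra was 1.88-fold higher (327 against 174 CPM, edgeR adjusted p = 3.46e-09) and Col3a1 and Thy1 were not called. The macrophage marker Cd68 averaged 2.58 CPM with TGF-alpha plus gefitinib, 8.98 CPM with TGF-alpha and 1.54 CPM in control, and was 5.70-fold higher with TGF-alpha than in control (adjusted p = 5.86e-06). Lyz2, of the same list, went the other way, at 2.75, 0.762 and 2.31 CPM in these groups. It was 2.99-fold lower with TGF-alpha than in control (adjusted p = 0.0218), from 4 and 17 counts with TGF-alpha. Acp5 and Ctsk were not called there. In bulk RNA, fewer cells of a type and less RNA per cell cannot be told apart, and the part of any such shift in the results below was not tested.

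The transcript of p53 itself was at much the same level in the 3 groups. Of its 9 targets 6 were higher with TGF-alpha plus gefitinib than with TGF-alpha alone, against 17% of all tested genes. Because the genes were chosen with earlier results known, setting these shares side by side is a description and no test. Of those 6 targets 4 stayed called without TGF-alpha plus gefitinib replicate 1, and 5 without either TGF-alpha library or TGF-alpha plus gefitinib replicate 2. In CPM, which are counts scaled by the TMM method to a common library size, Trp53 (chromosome 11, 69580359 to 69591873, plus strand, GRCm38) stood at 121 and 111 with TGF-alpha plus gefitinib, 114 and 121 with TGF-alpha, and 111 and 114 in control. The groups overlapped in every pair. The log2 fold change was -0.02 for TGF-alpha plus gefitinib against TGF-alpha (95% interval -0.15 to 0.11), 0.06 for TGF-alpha against control (-0.07 to 0.19) and 0.04 for TGF-alpha plus gefitinib against control (-0.09 to 0.17), and edgeR's quasi-likelihood test gave adjusted p-values of 0.869, 0.519 and 0.738. The table also lists the pseudogene Trp53-ps with 67 to 112 counts per library, so some reads could have been split between the copies. Together the 10 genes took 0.104% and 0.103% of all counts with TGF-alpha plus gefitinib, 0.0851% and 0.0893% with TGF-alpha and 0.0832% and 0.0871% in control.

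**Figure D1:**
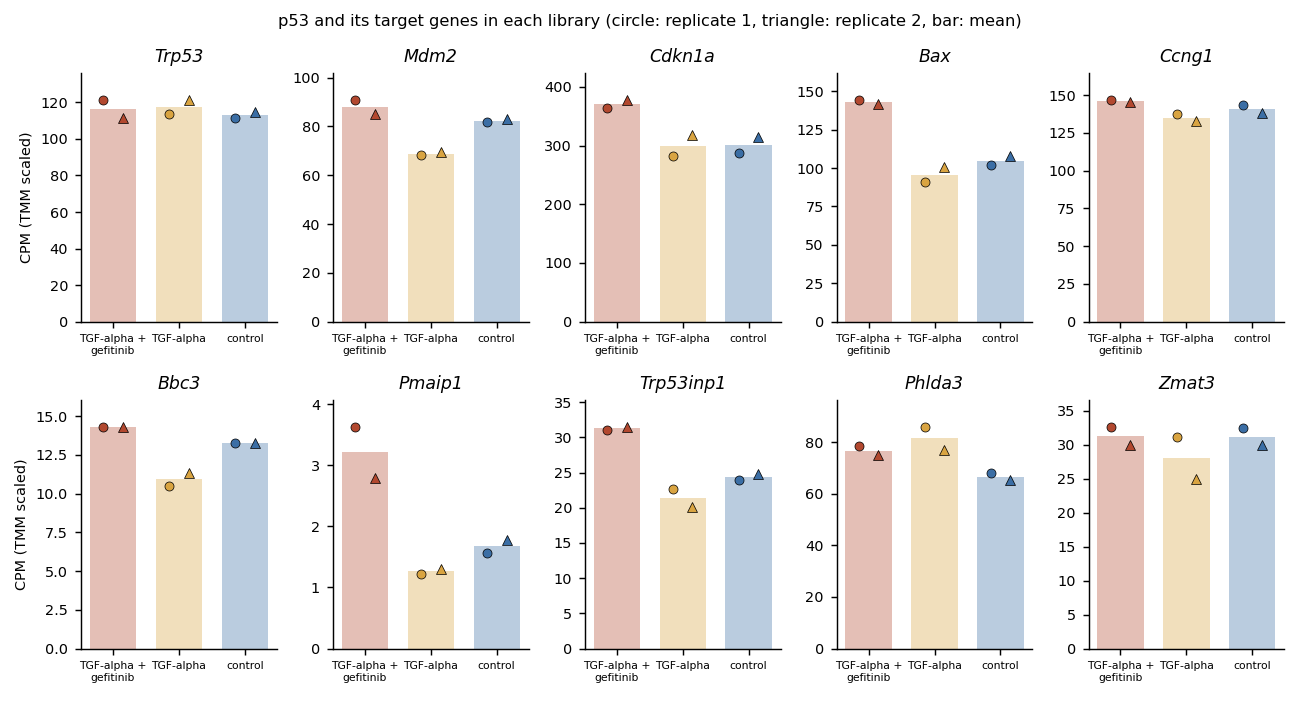
TMM-scaled CPM of Trp53 and 9 target genes in each library, with 1 panel per gene, each with its own linear axis from 0; bars are the mean of 2 libraries, circles replicate 1 and triangles replicate 2. Bax stands at 144 and 142 CPM with TGF-alpha plus gefitinib, above 90.6 and 100 with TGF-alpha, while the Trp53 points of the 3 groups overlap.

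Levels of different genes were compared per length, as CPM per kilobase of merged exon. On that scale the order was the same in all 3 groups: Cdkn1a, Bax, Phlda3, Ccng1, Trp53, Mdm2, Bbc3, Trp53inp1, Zmat3 and Pmaip1, and in no group did the libraries of neighbours in this order overlap. Cdkn1a led at 104 ± 2.87 with TGF-alpha plus gefitinib, 84.3 ± 7.02 with TGF-alpha and 84.6 ± 5.27 in control (mean ± SD, n = 2 each). Trp53 lay at 28.7 ± 1.69, 29.1 ± 1.32 and 27.9 ± 0.572 in the same groups. Pmaip1 was last, at 1.18 ± 0.216, 0.464 ± 0.0214 and 0.612 ± 0.0575. The pro-apoptotic genes were thus spread over nearly the whole range, with Bax next to the top and Pmaip1 at the bottom.

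**Figure D2:**
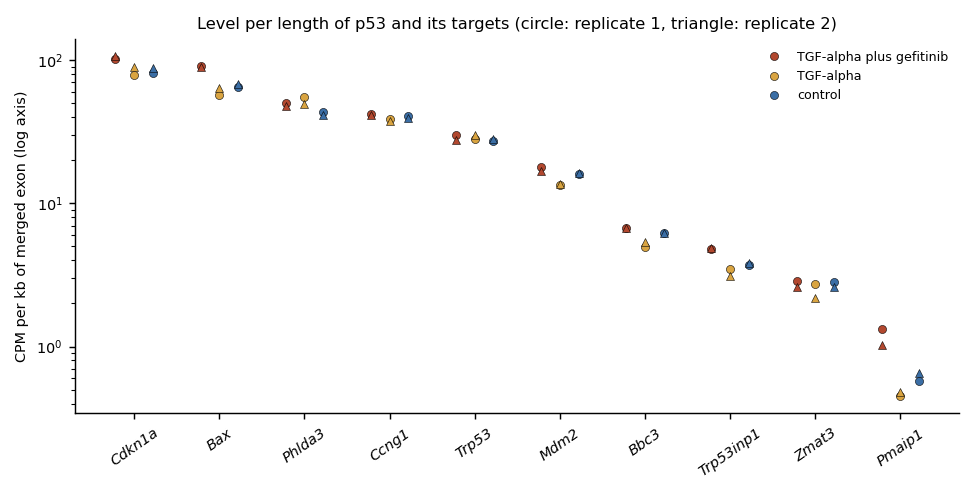
Level per length of each gene in CPM per kilobase of merged exon on a log axis, with 1 point per library, coloured by group and shaped by replicate. Genes are ordered by their level in control, from Cdkn1a at 84.6 to Pmaip1 at 0.612.

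The comparison of TGF-alpha plus gefitinib with TGF-alpha, which asks what adding gefitinib did in the presence of the ligand, gave the most calls. By edgeR 6 of the 10 genes were higher and 0 lower, with 0 lower also at an unadjusted p under 0.05 and by DESeq2, while over all 15362 tested genes 34% were called, 17% higher and 16.9% lower. The 2 groups did not overlap for 7 of the 10 genes, against 65.8% of all tested genes, so that this count is near the background. The median log2 fold change was 0.33 over the 10 genes and 0.01 over all tested genes. The 6 were Mdm2, Cdkn1a, Bax, Bbc3, Pmaip1 and Trp53inp1.

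Bax, whose protein permeabilises the outer mitochondrial membrane, had the smallest p of the 10 (chromosome 7, 45461697 to 45466898, minus strand). It stood at 144 and 142 CPM with TGF-alpha plus gefitinib and at 90.6 and 100 CPM with TGF-alpha, so that the groups were far apart relative to their spread. It rose by 49.8% (log2 0.58 ± 0.06 SE, edgeR adjusted p = 3.89e-06), rank 759 by p among 15362 genes, and was called in all 11 alternative fits. Exon bases amounting to 12.2% of Bax are shared with a same-strand transcript, Gm45808, that the count table does not list.

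The BH3-only genes Bbc3 and Pmaip1, whose proteins PUMA and NOXA free or activate BAX and BAK, were the other apoptotic members. Pmaip1 (chromosome 18) had 53 and 35 counts with TGF-alpha plus gefitinib and 17 and 18 with TGF-alpha, that is 3.63 and 2.80 against 1.23 and 1.31 CPM. It rose 2.54-fold (log2 1.34 ± 0.33 SE, adjusted p = 0.00563). The fold is imprecise at such counts, where counting noise alone gives a coefficient of variation of 13.7% to 24.3%, and the call was lost without TGF-alpha plus gefitinib replicate 1 (adjusted p = 0.0661). Bbc3 stood at 14.3 and 14.3 CPM with TGF-alpha plus gefitinib and at 10.5 and 11.3 CPM with TGF-alpha. It rose 1.31-fold (log2 0.39 ± 0.13 SE, adjusted p = 0.0300), close to the threshold. Its call was lost without TGF-alpha replicate 1 (0.149) or 2 (0.0602), without TGF-alpha plus gefitinib replicate 1 (0.109) or 2 (0.0849), and with DESeq2 (0.170).

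Cdkn1a (chromosome 17, 29090976 to 29100727, plus strand) makes p21, which blocks cyclin-dependent kinases and arrests the cell cycle. It had 364 and 378 CPM with TGF-alpha plus gefitinib and 282 and 317 CPM with TGF-alpha. Both gefitinib libraries lay above both TGF-alpha libraries, and Cdkn1a rose 1.24-fold (log2 0.31 ± 0.06 SE, adjusted p = 0.00111), a call kept in all 11 alternatives. A transcript on the other strand, AC167363.2, overlaps 7.68% of its exon bases, and whether counting used strand is not given in the sources used here. Mdm2 (chromosome 10, 117688875 to 117710758, minus strand), the negative regulator, had 90.9 and 85.2 CPM with TGF-alpha plus gefitinib and 68.4 and 69.4 CPM with TGF-alpha. It rose 1.28-fold (log2 0.35 ± 0.06 SE, adjusted p = 0.000428), also in all 11 alternatives. Trp53inp1, whose nuclear and autophagy-linked protein promotes p53-dependent cell death (chromosome 4, 11156431 to 11174379, plus strand), had 31.0 and 31.5 CPM with TGF-alpha plus gefitinib and 22.7 and 20.1 CPM with TGF-alpha. It rose 1.46-fold (log2 0.55 ± 0.10 SE, adjusted p = 0.000612), again in all 11 alternatives.

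The remaining targets were not called in this comparison. Ccng1, which makes cyclin G1, a partner of a phosphatase that acts on MDM2 (chromosome 11, 40748552 to 40755311, minus strand), had 147 and 146 CPM with TGF-alpha plus gefitinib and 137 and 133 CPM with TGF-alpha. These groups did not overlap, but the difference of 8.22% was not called (log2 0.11, 95% interval 0.00 to 0.23, adjusted p = 0.113). Phlda3, a competitor of AKT for membrane lipids (chromosome 1, 135766119 to 135769136, plus strand), had 78.4 and 75.1 CPM against 86.0 and 76.9 CPM (log2 -0.09, interval -0.23 to 0.06, adjusted p = 0.373). Zmat3, an RNA-binding zinc finger protein gene (chromosome 3, 32334792 to 32366014, minus strand), had 32.6 and 29.9 CPM with TGF-alpha plus gefitinib and 31.2 and 24.9 CPM with TGF-alpha (log2 0.16, interval -0.08 to 0.40, adjusted p = 0.305). Cdkn1a and Ccng1, the pair with a full site in its windows, thus fell on different sides of the test, though their difference was not itself tested.

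**Figure D3:**
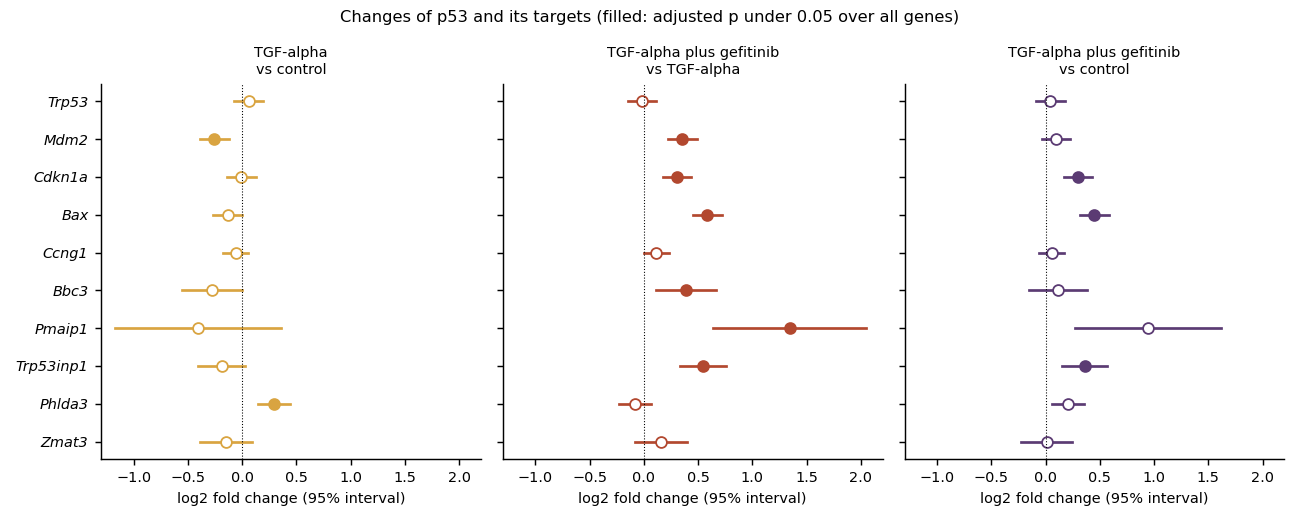
Log2 fold change of each gene in the 3 comparisons with its unadjusted 95% interval; filled points have an adjusted p under 0.05 over all tested genes. With TGF-alpha plus gefitinib against TGF-alpha 6 points are filled and lie between 0.31 and 1.34, while Trp53 is at -0.02.

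Counts of a target per count of Trp53 in the same library do not depend on library scaling. Bax had 1.19 and 1.27 counts per Trp53 count with TGF-alpha plus gefitinib, 0.796 and 0.828 with TGF-alpha and 0.916 and 0.940 in control. Mdm2 had 0.751 and 0.765, 0.600 and 0.572, and 0.734 and 0.726 in the same groups. Both TGF-alpha libraries were the lowest for 6 of the 9 targets, Mdm2, Bax, Bbc3, Pmaip1, Trp53inp1 and, by a narrow margin (1.206 against 1.208), Ccng1. They overlapped other groups for Cdkn1a, Zmat3 and Phlda3, and Phlda3 had 0.647 and 0.674 with TGF-alpha plus gefitinib, 0.755 and 0.634 with TGF-alpha and 0.611 and 0.569 in control. For Cdkn1a the ratios were 3.003 and 3.39, 2.48 and 2.61, and 2.58 and 2.74, so that the gefitinib libraries stood above both other groups. These are ratios of raw counts and not levels per length. The share of all genes with the same order was not computed, and all 9 ratios share the Trp53 count. The 6 of 9 is thus not read as a result about the targets.

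TGF-alpha against control, the comparison that addresses EGFR activation, moved few of the 10 genes. Mdm2 fell and Phlda3 rose, and the other 8 were not called; over all tested genes 29.9% were called, 15.9% higher and 14% lower. The groups did not overlap for 7 of the 10, against 64.1% of all genes. The median log2 fold change was -0.14 over the 10 genes and 0.00 over all genes. Set beside these shares, neither count is a result about the 10 genes.

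Mdm2 had 68.4 and 69.4 CPM with TGF-alpha and 81.6 and 83.1 CPM in control. It changed by -16.4% (log2 -0.26 ± 0.06 SE, adjusted p = 0.00526), and was called in all 11 alternatives. Phlda3 had 86.0 and 76.9 CPM with TGF-alpha and 67.9 and 65.1 CPM in control, a rise of 22.5% (log2 0.29 ± 0.07 SE, adjusted p = 0.00456). The 2 TGF-alpha libraries lay well apart, and the Phlda3 call was lost without control replicate 2 (adjusted p = 0.0588) or TGF-alpha replicate 1 (0.0867), which leaves 1 of the 10 genes called in each case. Cdkn1a was at 282 and 317 CPM with TGF-alpha and 287 and 314 CPM in control, a log2 difference of -0.01 with an interval of -0.14 to 0.12.

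The apoptotic genes had lower means with TGF-alpha but were not called. Bax had 90.6 and 100 CPM with TGF-alpha and 102 and 108 CPM in control (log2 -0.13, adjusted p = 0.132). Bbc3 had 10.5 and 11.3 CPM against 13.3 and 13.2 CPM (log2 -0.28, adjusted p = 0.125). Pmaip1 had 1.23 and 1.31 CPM with TGF-alpha and 1.56 and 1.78 CPM in control, from 17 and 18 counts against 20 and 28 (log2 -0.40, interval -1.17 to 0.36, adjusted p = 0.445). At this depth an interval that wide leaves both a fall and a rise possible. Trp53inp1, at 22.7 and 20.1 CPM with TGF-alpha and 23.9 and 24.8 CPM in control, had an adjusted p of 0.191. For Ccng1 the values were 137 and 133 CPM with TGF-alpha and 143 and 138 CPM in control (adjusted p = 0.450), and for Zmat3 31.2 and 24.9 CPM against 32.4 and 29.9 CPM (adjusted p = 0.353).

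TGF-alpha plus gefitinib against control shows how far the inhibited libraries stood from untreated ones. By edgeR 3 of the 10 genes were higher, Bax, Cdkn1a and Trp53inp1, and 0 lower, with 0 lower also at an unadjusted p under 0.05 and by DESeq2, while 9.52% of all tested genes were called, 5.27% higher and 4.26% lower. The groups did not overlap for 8 of the 10, against 52.1% of all genes, and the 10 fitted values lay between 0.01 and 0.94, with a median of 0.16 against 0.00 over all genes. This comparison shares libraries with both others, so its values are not independent of theirs.

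Bax, at 144 and 142 CPM with TGF-alpha plus gefitinib and 102 and 108 CPM in control, was 1.37-fold higher (log2 0.45 ± 0.06 SE, adjusted p = 0.000300). By p it ranked 197 among 15362 genes, and it was called in all 11 alternatives. Cdkn1a, at 364 and 378 CPM against 287 and 314 CPM, was 1.23-fold higher (log2 0.30 ± 0.06 SE, adjusted p = 0.00540). Its call was lost without control replicate 1 (adjusted p = 0.0949), which left only Bax called among the 10. Trp53inp1 had 31.0 and 31.5 CPM with TGF-alpha plus gefitinib and 23.9 and 24.8 CPM in control, and was 1.28-fold higher (log2 0.36 ± 0.10 SE, adjusted p = 0.0331). That call was lost without control replicate 1 (0.175) or 2 (0.124), without TGF-alpha plus gefitinib replicate 1 (0.0843) or 2 (0.116), and with DESeq2 (0.139), although the log2 value stayed between 0.33 and 0.39 in all 11 alternatives.

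For the other members this comparison gave no call. Mdm2 had 90.9 and 85.2 CPM with TGF-alpha plus gefitinib and 81.6 and 83.1 CPM in control (log2 0.10, interval -0.03 to 0.23, adjusted p = 0.378). Bbc3 had 14.3 and 14.3 CPM against 13.3 and 13.2 CPM (adjusted p = 0.660). For these genes the inhibited libraries lay near the control level, after lower values with TGF-alpha alone. Pmaip1 had 3.63 and 2.80 CPM with TGF-alpha plus gefitinib and 1.56 and 1.78 CPM in control, a 1.92-fold difference that was not called (log2 0.94, interval 0.27 to 1.61, adjusted p = 0.0775). Phlda3 had 78.4 and 75.1 CPM against 67.9 and 65.1 CPM (log2 0.21, interval 0.06 to 0.36, adjusted p = 0.0768). Ccng1 and Zmat3 had adjusted p-values of 0.592 and 0.979.

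Among genes that control p53, Mdm4, the MDM2 relative that masks its activation domain, and Trp53bp1, a DNA damage response protein, were lower with gefitinib. Mdm4 had 64.5 and 64.0 CPM with TGF-alpha plus gefitinib, 80.0 and 82.5 CPM with TGF-alpha and 75.2 and 86.5 CPM in control. It was lower than with TGF-alpha (log2 -0.34 ± 0.07 SE, edgeR adjusted p = 0.00209) and than control (log2 -0.33 ± 0.07, adjusted p = 0.00862), a call lost without control replicate 2 (0.146). Trp53bp1 had 85.3 and 84.1 CPM with TGF-alpha plus gefitinib, 104 and 102 CPM with TGF-alpha and 108 and 103 CPM in control, and was lower than with TGF-alpha (adjusted p = 0.00145) and than control (0.00264). Trp63, the p53 family member known from epithelia, had 13.9 and 13.4 CPM with TGF-alpha plus gefitinib, 25.0 and 25.4 CPM with TGF-alpha and 22.9 and 24.3 CPM in control (adjusted p = 1.30e-05 and 0.000264 for TGF-alpha plus gefitinib against TGF-alpha and against control). Cdkn2a, whose ARF product inhibits MDM2, had 20.7 and 22.8 CPM with TGF-alpha plus gefitinib, 29.0 and 27.6 CPM with TGF-alpha and 21.8 and 22.4 CPM in control, so its TGF-alpha libraries were the highest. Gene counts cannot separate ARF from the p16 product of the same locus. The Cdkn2a rise with TGF-alpha (adjusted p = 0.0142) was lost without TGF-alpha replicate 1 or either control library (highest adjusted p = 0.0920), and the lower value with gefitinib (0.00868) without TGF-alpha replicate 1 or TGF-alpha plus gefitinib replicate 1 (highest 0.0651).

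Of 24 tested regulators and partners 1 was higher and 7 lower with TGF-alpha plus gefitinib than with TGF-alpha. Over all tested genes 17% were higher and 16.9% lower there, so the list's share called was near that of all genes. The rise was lost without TGF-alpha replicate 1 or TGF-alpha plus gefitinib replicate 1. Of the 7 falls 3 stayed called without TGF-alpha replicate 1, and 4 without TGF-alpha replicate 2 or either TGF-alpha plus gefitinib library. With TGF-alpha against control 3 were higher by edgeR, Twist1, Cdkn2a and the damage kinase gene Atm (adjusted p = 0.00387, 0.0142 and 0.0214), against 15.9% of all genes. None of the 24 was lower, either by DESeq2 or at an unadjusted p under 0.05, and of the 3 rises 0 were left without control replicate 1 or TGF-alpha replicate 1 and 1 without control replicate 2. Against control 3 were lower with TGF-alpha plus gefitinib and 0 higher by edgeR or DESeq2 (2 higher at an unadjusted p under 0.05), where 4.26% of all genes were lower and 5.27% higher. The median log2 fold changes were -0.15, 0.04 and -0.08 in these comparisons. Wrap53, which lies head to head with Trp53 and shares no exon bases with it in GENCODE M21, had 16.3 and 15.1 CPM with TGF-alpha plus gefitinib, 17.9 and 17.6 CPM with TGF-alpha and 15.1 and 11.7 CPM in control. It rose with TGF-alpha (adjusted p = 0.0318), a call lost without control replicate 2 or either TGF-alpha library (highest 0.321).

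Other known p53 targets moved in both directions. Of 58 listed in 5 groups by role 50 were tested, and with TGF-alpha plus gefitinib against TGF-alpha 13 were higher and 9 lower, with a median log2 fold change of 0.08, where 17% of all genes were higher and 16.9% lower. Of the 13 rises 7 stayed called without TGF-alpha replicate 1. With TGF-alpha against control 15 were higher and 9 lower, with a median of 0.07, where 15.9% of all genes were higher and 14% lower. Here too, some of the rises and some of the falls were lost without single libraries. Against control, TGF-alpha plus gefitinib had 10 higher and 2 lower (median 0.17), where 5.27% of all genes were higher and 4.26% lower. Of those 10, 5 stayed called without control replicate 1 or TGF-alpha plus gefitinib replicate 2 and 6 without control replicate 2 or TGF-alpha plus gefitinib replicate 1. Of the 2 lower genes 0 stayed called without control replicate 2 and 1 without any other library.

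By group, TGF-alpha plus gefitinib against TGF-alpha had 3 of 9 tested death receptor and apoptosis genes higher, 6 of 15 metabolism, redox and autophagy genes higher and 1 lower, and 3 of 8 feedback and noncoding targets higher, against 17% of all genes higher and 16.9% lower. Of the 3 apoptosis rises 1 stayed called without TGF-alpha replicate 1 or TGF-alpha plus gefitinib replicate 1, of the 6 metabolic ones 3 without TGF-alpha replicate 1, and of the 3 feedback ones 1 without TGF-alpha replicate 2. With TGF-alpha against control the same groups had 2 higher and 1 lower, 3 higher and 4 lower, and 1 higher and 2 lower, against 15.9% of all genes higher and 14% lower. Of the 3 metabolic rises 1 stayed called without control replicate 2. The 2 apoptosis rises were 1, and the feedback rise 0, without control replicate 2 or either TGF-alpha library, the apoptosis fall was joined by another without TGF-alpha replicate 2, and the 2 feedback falls were 1 without TGF-alpha replicate 2 or either control library. TGF-alpha plus gefitinib against control had 1, 6 and 1 higher by edgeR, where 5.27% of all genes were higher, and 1, 3 and 0 higher by DESeq2. In each group 0 were lower by edgeR or DESeq2, with 0, 0 and 1 lower at an unadjusted p under 0.05. Of the 6 metabolic rises 3 stayed called without control replicate 2 or TGF-alpha plus gefitinib replicate 2. Of the metabolic genes, Ephx1, which makes microsomal epoxide hydrolase, had 204 and 201 CPM with TGF-alpha plus gefitinib, 177 and 177 CPM with TGF-alpha and 157 and 149 CPM in control. Abhd4, a lipid hydrolase gene, had 96.2 and 104 CPM, 78.0 and 86.0 CPM, and 67.4 and 76.0 CPM in the same groups. Both were higher with TGF-alpha plus gefitinib than in control (adjusted p = 0.000159 and 0.000788), without any single library too. Slc19a2, a thiamine transporter gene, was 1.34-fold higher there (0.0224), a call lost without control replicate 2 or TGF-alpha plus gefitinib replicate 2 (highest 0.213). Zfp365 and the noncoding Pvt1 were 1.37-fold and 1.27-fold higher with TGF-alpha plus gefitinib than with TGF-alpha (adjusted p = 0.00462 and 0.0266). The Zfp365 call was lost without TGF-alpha replicate 2 (0.0522) and the Pvt1 call without either TGF-alpha library or TGF-alpha plus gefitinib replicate 2 (highest 0.168). Zfp365 was also called against control (0.0482), but in none of the 6 fits without a library. Siva1, an apoptosis gene, was 1.20-fold higher with TGF-alpha than in control (0.0320), lost without control replicate 2 or either TGF-alpha library (highest 0.228).

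Targets with the direction of Bax and Mdm2 were found among apoptotic, metabolic and noncoding genes. Aen, a nuclease of apoptotic cells, had 61.9 and 59.0 CPM with TGF-alpha plus gefitinib, 40.8 and 42.7 CPM with TGF-alpha and 53.5 and 53.5 CPM in control. It rose with gefitinib relative to TGF-alpha (log2 0.54 ± 0.07 SE, adjusted p = 3.25e-05) and fell with TGF-alpha relative to control (-0.36 ± 0.07, adjusted p = 0.00136). Trp53cor1, the noncoding RNA lincRNA-p21 transcribed next to Cdkn1a, had 12.5 and 13.03 CPM, 5.77 and 6.03 CPM, and 13.6 and 12.6 CPM in the same groups. It rose 2.16-fold with gefitinib (adjusted p = 3.99e-05) and fell with TGF-alpha (log2 -1.15 ± 0.15 SE, adjusted p = 3.10e-05), in contrast to its neighbour Cdkn1a, which was not called in the second comparison. Sesn2, a sestrin that restrains mTORC1, had 78.6 and 78.8 CPM with TGF-alpha plus gefitinib, 51.1 and 51.3 CPM with TGF-alpha and 85.4 and 83.1 CPM in control. Gdf15, a stress cytokine, had 21.1 and 20.3 CPM, 6.20 and 9.60 CPM, and 13.6 and 14.5 CPM. Both fell with TGF-alpha and rose with gefitinib, with adjusted p-values of 4.47e-07 and 2.13e-06 for Sesn2 and 0.00165 and 1.06e-05 for Gdf15. Sesn2 and Gdf15 are also known to answer to ATF4, which acts apart from p53, and the part of ATF4 here was not tested. The phospholipid transfer protein gene Pltp likewise fell with TGF-alpha and rose with gefitinib (adjusted p = 3.96e-07 and 7.43e-10), and was also 1.47-fold above control in TGF-alpha plus gefitinib (3.79e-05). The death receptor gene Fas was 50.3% higher with gefitinib than with TGF-alpha (adjusted p = 0.0120), a call lost without TGF-alpha replicate 1 or TGF-alpha plus gefitinib replicate 1 (highest 0.132). Steap3, an endosomal iron reductase gene, differed from Bax and Mdm2 in that it also rose with TGF-alpha against control (log2 0.36). It rose as well in TGF-alpha plus gefitinib against TGF-alpha (0.17) and against control (0.53). The call against TGF-alpha was lost without TGF-alpha replicate 1 or TGF-alpha plus gefitinib replicate 1.

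Members of the cell cycle and growth arrest group mostly went the other way. With TGF-alpha against control 8 of 10 tested members were higher and 1 lower, against 15.9% and 14% of all genes, and with TGF-alpha plus gefitinib against TGF-alpha 1 was higher and 7 lower, against 17% and 16.9%. Plk2, a kinase of centriole duplication, had 99.5 and 99.5 CPM with TGF-alpha plus gefitinib, 203 and 185 CPM with TGF-alpha and 118 and 121 CPM in control (adjusted p = 8.89e-09 against TGF-alpha). Ptprv, a receptor-type phosphatase gene, had 8.09 and 7.52 CPM, 30.4 and 30.2 CPM, and 9.76 and 13.6 CPM in the same groups and fell by 1.95 ± 0.15 SE on the log2 scale with gefitinib (adjusted p = 8.98e-08). Gas6, the ligand of the TAM receptors, was the exception, at 836 and 816 CPM with TGF-alpha plus gefitinib, 334 and 342 CPM with TGF-alpha and 803 and 760 CPM in control. Gas6 fell with TGF-alpha and rose with gefitinib (adjusted p = 5.80e-11 and 2.37e-11). The spindle-linked genes Psrc1 and Ckap2 are in this group too and are otherwise known for their rise in dividing cells. Psrc1 rose 2.25-fold and Ckap2 2.65-fold with TGF-alpha (adjusted p = 4.96e-09 and 9.85e-07). Gadd45a had 45.6 and 45.7 CPM with TGF-alpha plus gefitinib, 55.9 and 49.7 CPM with TGF-alpha and 33.5 and 35.7 CPM in control. It was 1.32-fold higher in TGF-alpha plus gefitinib than in control (edgeR adjusted p = 0.00713), a call lost without control replicate 1. Against control, TGF-alpha plus gefitinib had 2 of the 10 higher and 2 lower, against 5.27% and 4.26% of all genes. The 2 rises were 0 without control replicate 1 and 1 without either TGF-alpha plus gefitinib library, and the 2 falls 0 without control replicate 2 and 1 without any other library. In the DNA repair and nucleotide supply group Polh, a translesion polymerase gene, had 23.9 and 19.1 CPM with TGF-alpha plus gefitinib, 35.9 and 32.8 CPM with TGF-alpha and 20.5 and 21.2 CPM in control, and it was the single member of 8 called with gefitinib against TGF-alpha (adjusted p = 0.000312). With TGF-alpha against control Polh rose (0.000184) and Rrm2b, a ribonucleotide reductase subunit gene, fell (0.0399), the second lost without control replicate 2 or either TGF-alpha library (highest 0.321). With TGF-alpha plus gefitinib against control 0 of the 8 were called by edgeR or DESeq2 and 1 had an unadjusted p under 0.05; Rrm2b had 28.4 and 28.9 CPM against 31.4 and 35.9 CPM (adjusted p = 0.155), and the nuclease gene Ercc5 29.2 and 29.1 CPM against 31.1 and 31.5 CPM (0.586). The lysosomal membrane gene Dram1, linked to autophagy, rose 1.70-fold with TGF-alpha (adjusted p = 0.00525) and fell by 1.10 ± 0.19 SE on the log2 scale with gefitinib (0.000388).

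**Figure D4:**
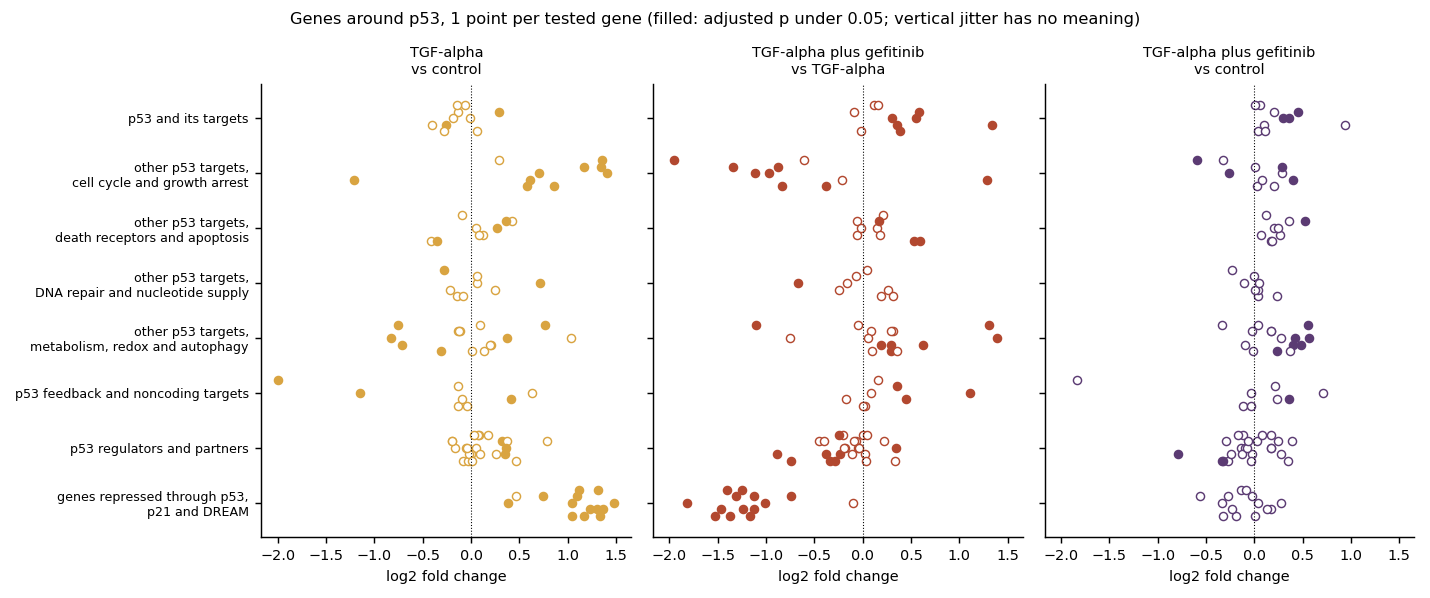
Log2 fold change of every tested gene of the p53 list and 7 further lists, with 1 column per comparison and filled points at an adjusted p under 0.05; vertical position within a row carries no value. With TGF-alpha plus gefitinib against TGF-alpha the cell cycle genes repressed through p53, p21 and DREAM lie between -1.82 and -0.10, while 6 of the 10 genes of the p53 list are filled to the right of 0.

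The last list held cell cycle genes that p53 represses through p21 and the DREAM complex. Of 14 tested, 13 were lower and 0 higher with TGF-alpha plus gefitinib than with TGF-alpha (median log2 -1.24), and 13 were higher and 0 lower with TGF-alpha than in control (median 1.14), while of all genes 16.9% were lower in the first comparison and 15.9% higher in the second. The counts of 0 were the same by DESeq2 and at an unadjusted p under 0.05. In both comparisons some of the 13 calls were lost without single libraries. Against control 0 of 14 were called by edgeR or DESeq2 with TGF-alpha plus gefitinib, while 1 was higher and 4 were lower at an unadjusted p under 0.05 and the median was -0.11. In that comparison Mki67, a marker of cycling cells, had an adjusted p of 0.0991 and Top2a, a topoisomerase gene, 0.0503. Mki67 averaged 72.2 ± 1.26 CPM with TGF-alpha plus gefitinib, 208 ± 19.7 CPM with TGF-alpha and 82.7 ± 0.547 CPM in control (SD, n = 2 each). The kinase gene Cdk1 had 39.4 and 40.7 CPM with TGF-alpha plus gefitinib, 81.0 and 80.6 CPM with TGF-alpha and 38.6 and 39.6 CPM in control, and the cyclin gene Ccna2 18.5 and 18.3, 47.0 and 50.4, and 18.7 and 20.3 CPM. Cdkn1a was 1.23-fold above control, a call lost without control replicate 1, in libraries where these genes were not called against control. With TGF-alpha, where they were higher, Cdkn1a was not called. A link between Cdkn1a and these genes was not tested. The part of cell division in the values of the p53 targets was not tested. The entry listed as Mir34a, a microRNA gene known as a p53 target, had 7 and 4 counts with TGF-alpha plus gefitinib, 8 and 2 with TGF-alpha and 18 and 24 in control. Its fall with TGF-alpha (adjusted p = 0.0149) was lost without TGF-alpha replicate 2 or either control library (highest 0.170).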

How the data were processed

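The authors deposited raw counts per gene symbol, 1 column per library, made from 6 total RNA libraries prepared with standard Ion Proton protocols per the labels, with GRCm38 as the build per the submitters' processing notes. For the aligner, counter, annotation and strand setting: not given in the sources used here. Counts were fitted for all libraries together with edgeR 4.0.16 (R 4.3.3): filterByExpr with a minimum count of 10, TMM scaling, glmQLFit and glmQLFTest with group as the term (residual df 3, prior df 11.2, common coefficient of biological variation 6.08%), and Benjamini-Hochberg adjustment over 15362 genes at a threshold of 0.05. The fit was tested on simulated data. Of 44788 entries, 19649 had no counts. Standard errors were derived from the F statistics, and the 95% intervals are not adjusted for multiple tests. Totals of 12317407 to 16096263 per library limit the precision of low genes. Lengths and positions came from GENCODE M21 and promoter windows from RefSeq. Alternatives were DESeq2 1.42.0, RLE scaling, no filter, only the 4 libraries compared, a replicate block, leaving out each library, and longest transcripts. The p53 genes and the further lists were chosen with earlier results of these data known. All 10 genes are named, as are, in each further list and comparison, up to 4 called genes of smallest p, and always Mdm4, Cdkn2a and Wrap53; where none was called, the 2 of highest level.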

Additional observations from a re-analysis of the deposited data

How the results depend on the processing

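Over 11 alternatives, 306 of 330 log2 fold changes of the 10 genes kept their direction and side of the threshold, 15 lost a call and 9 changed sign, all 9 in genes that were not called. With DESeq2 the Zmat3 value for TGF-alpha plus gefitinib against control was -0.0012. Without single libraries, Cdkn1a ranged from -0.0957 to 0.0763 for TGF-alpha against control, Trp53 from -0.0927 to 0.0447 for TGF-alpha plus gefitinib against TGF-alpha and from -0.0253 to 0.101 against control, and Zmat3 from -0.0630 to 0.0680 against control. Of the 10 genes, without single libraries, 4 to 6 were called for TGF-alpha plus gefitinib against TGF-alpha, 1 to 2 for TGF-alpha against control and 1 to 3 for TGF-alpha plus gefitinib against control. Over all genes these fits called 3703 to 4950, 3297 to 4767 and 649 to 1291, against 5217, 4600 and 1463 with all libraries. DESeq2 called 946 in the last comparison. The cause was not tested. Libraries with the same number did not deviate together over all tested genes (correlations of 0.00340, 0.0108 and -0.0228). Noisy genes of low count weigh as much as others in these values, so they cannot exclude that a number marks a shared culture or animal. With a replicate block 5042, 4450 and 1335 genes and 6, 2 and 2 of the 10 were called. Under the block Trp53inp1 against control lay just above the threshold. Full p53 sites were the same 2 of 7 with at most 1 mismatch, and the longest transcript as length kept the order of levels. Depth limits Pmaip1 most, with 17 to 53 counts per library.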
